A study of Mus musculus with 6 samples.

Results

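The genes described here encode the proteins of the mitochondrial ribosome that carry the symbols Mrpl (large subunit) and Mrps (small subunit). Every symbol of the deposited gene table that starts with Mrpl or Mrps followed by a digit was taken, and 5 annotated pseudogenes were left out, which gave 78 genes of the 17831 in the table. Gene expression was measured by RNAseq in group 2 innate lymphoid cells (ILC2s), lymphocytes of the lung that release type 2 cytokines after alarmins such as IL-33. One group was WT (genotype given as CB57BL/6) and the other SIRPα KO (SIRPalphatm1Ynliu/J), a line in which the inhibitory receptor SIRPα is disrupted, with 3 libraries in each. Mice of both groups were 6 to 8 weeks old and were given rmIL-33 by the nose, 0.5 μg on each of 3 days. Their lung ILC2s were sorted on day 4 as CD45+ lineage- CD127+ ST2+ cells and then cultured with rmIL-2 and rmIL-7 at 10 ng/ml each, for 18 h by one description and 24 h by another. The question put to the members is whether the cells of the 2 genotypes differ in transcripts of the mitochondrial ribosome, and how far any such difference goes with transcript length.

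The libraries held between 13980499 and 19051507 counted reads. WT replicates 1 and 2 share the code 37 and SIRPα KO replicates 2 and 3 share the code 44, so that libraries of one code may come from one sample. In that case each group holds 2 samples and the p-values below, which count 3, are too small. The labels do not say that the replicates are separate animals, so the p-values measure the spread between these libraries. Sirpa itself was low, at 8.57, 6.83 and 4.83 CPM (read counts scaled to a common library size by TMM) in WT and 3.07, 4.46 and 1.74 CPM in SIRPα KO, and although each SIRPα KO library was under the lowest WT one, the difference did not pass the test (edgeR adjusted p = 0.115). The 14 ILC2 markers summed to between 15489 and 16649 CPM in WT and between 21299 and 21842 CPM in SIRPα KO, with Il5 and Il2ra as most of the sum and of its rise. Gata3 was at 846 to 1078 CPM in WT and 974 to 1035 CPM in SIRPα KO, while Id2 (log2 fold change -0.65, edgeR adjusted p = 0.0154) and Thy1 (-2.06, 0.0139) fell. Of 6 B cell markers, 5 were in the table, and their sum was 112 to 209 CPM in WT against 16.9 to 35.7 CPM in SIRPα KO. Igkc was the largest part (177, 159 and 73.4 CPM against 1.09, 21.7 and 18.8 CPM) except in SIRPα KO replicate 1, where Cd79b was. Cd79b had 24.2, 25 and 23.6 CPM in WT and 14.5, 13.2 and 13.6 CPM in SIRPα KO, and Cd79a had at most 8.34 CPM in any library. T cell markers, mostly Cd3g, summed to 18 to 23.5 CPM in WT against 4.77 to 5.56 CPM, and NK cell markers to 8.34 to 15.6 CPM against 0.682 to 1.63 CPM. The sum of mast cell or basophil markers, 67.1 to 124 CPM in WT and 165 to 190 CPM in SIRPα KO, was mostly Kit. The more specific Mcpt8 had 4.72, 3.06 and 11.3 CPM in WT and 1.85, 0 and 0 CPM in SIRPα KO. The endothelial sum, 16.2 to 27.4 CPM in WT and 40.8 to 43.8 CPM in SIRPα KO, was nearly all Pecam1, with Kdr at most 1.36 CPM in any library. Macrophage markers summed to 43.5, 39.7 and 126 CPM in WT replicates 1, 2 and 3 and to 67.6, 109 and 94 CPM in SIRPα KO, so that WT replicate 3 stood apart from the other WT libraries in this sum. Lyz2 was the largest part, at 21.1, 22.8 and 82.1 CPM in these WT libraries. Adgre1, Cd68, Mrc1 and Marco were also highest in WT replicate 3 among the WT libraries, while Csf1r was lowest there (6.5, 4.34 and 3.24 CPM). SIRPα KO replicate 1 stood apart in the sum of eosinophil markers (20.8 CPM, against 1.64 to 20.8 CPM over all libraries) and of epithelial ones (6.2 CPM, against 45 to 67.5 CPM in the other libraries). The epithelial gap was mostly Scgb1a1, at 0.0639 CPM there and 34.8 to 60.8 CPM in the other libraries. Epcam had 17.3, 13.1 and 9.73 CPM in WT and 5.88, 6.51 and 5.27 CPM in SIRPα KO. The one erythroid marker in the table was at 5.48 to 8.94 CPM in WT and 1.79 to 2.15 CPM in SIRPα KO. The part of these other cells in the results below was not tested. In bulk RNA, fewer cells of a type and less RNA per cell cannot be told apart.

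Mitochondria keep ribosomes of their own, which make the few inner membrane proteins that the mitochondrial genome encodes, all of them subunits of the respiratory chain and the ATP synthase. Their ribosomal RNAs come from mitochondrial DNA, whereas every mitochondrial ribosomal protein is encoded in the nucleus, translated in the cytosol and imported. Compared with its bacterial ancestor the particle has less RNA and more protein, and its proteins fall into those with bacterial counterparts and those found in mitochondria alone. The nuclear genes are spread over the genome and are mostly short.

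Every one of the 78 members was expressed. The lowest count of any member in any library was 348 reads and the highest 4499, so that all 78 passed the filter on low counts. Together the members took 0.585%, 0.582% and 0.78% of the counted reads in WT replicates 1, 2 and 3, and 0.517%, 0.52% and 0.528% in SIRPα KO replicates 1, 2 and 3. The SIRPα KO libraries were all below the WT libraries and lay within a narrow range, while WT replicate 3 stood well above the other WT libraries. The mean was 0.649% ± 0.113 (SD, n = 3) in WT and 0.522% ± 0.00569 (SD, n = 3) in SIRPα KO. This share is a description and was given no test.

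Levels were compared between genes per kilobase of the median protein-coding transcript. On that scale the mean level in WT ran from 8.14 CPM per kb for Mrpl47 to 465 CPM per kb for Mrpl33, a 57.2-fold range, with a median of 70.9 CPM per kb. The median over the 13498 tested genes with a known coding length was 10.6 CPM per kb, and 77 of the 78 members were above it. After Mrpl33 came Mrpl20 at 302, Mrpl42 at 245 and Mrps21 at 217 CPM per kb. At the lower end, Mrps25 was at 11.6, Mrpl19 at 12.6 and Mrpl1 at 12.9 CPM per kb. The order of the members was much alike in SIRPα KO, with a Spearman correlation of 0.96 across the 78 genes, which is a description and rests on shared transcript lengths. Mrpl33 moved from the first to the second place there, behind Mrpl20. The order of levels depends on the transcript used. Per kilobase of the longest annotated transcript, Mrpl33 was at 81.1 CPM per kb in WT, since its longest transcript has 2741 bases against 478 for its median coding one.

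**Figure D1:**
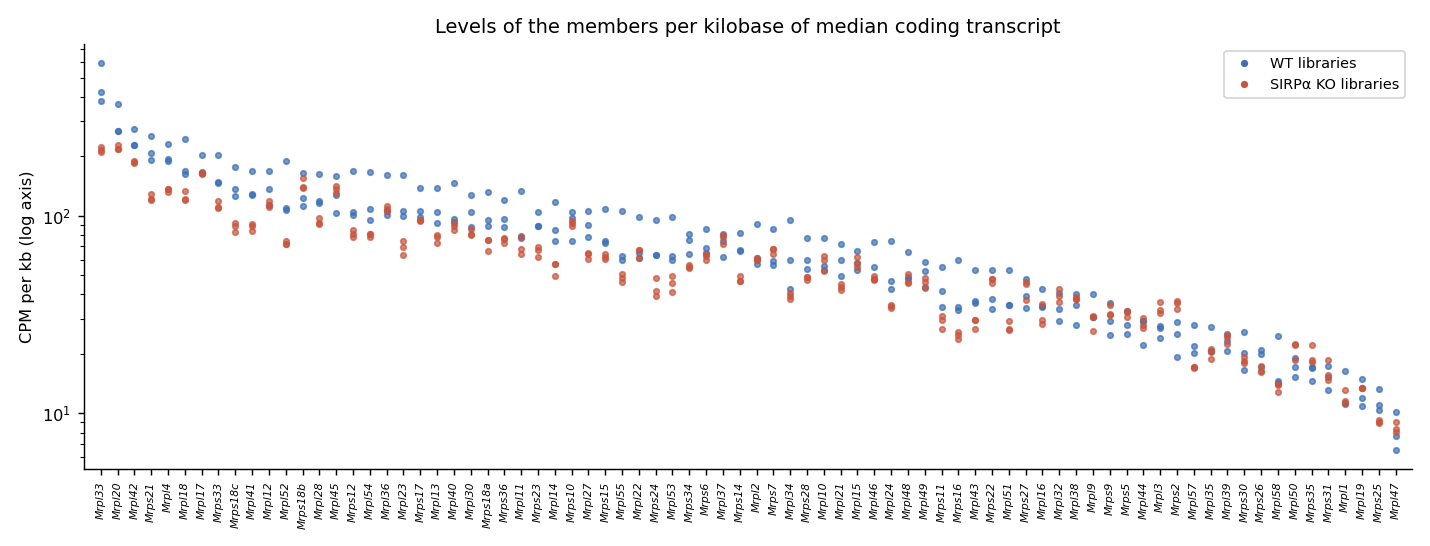
Levels of the 78 members in each library, in CPM per kilobase of the median protein-coding transcript on a log axis, ordered by the WT mean, with WT libraries in blue and SIRPα KO libraries in red. The levels run from 465 CPM per kb (Mrpl33) to 8.14 CPM per kb (Mrpl47) in WT. For most members at the high end of this scale, which divides by transcript length, the SIRPα KO points lie below the WT points.

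In SIRPα KO ILC2s, 60 of the 78 members were lower than in WT and 18 were higher. The log2 fold change (SIRPα KO minus WT, written log2FC from here on) of the members had a median of -0.35, with quartiles of -0.58 and -0.013, beside a median of -0.025 over the 13623 genes tested. In edgeR's quasi-likelihood test with Benjamini-Hochberg adjustment over all genes, 9 members fell and none rose at an adjusted p under 0.05, with 2 higher at an unadjusted p under 0.05 and 2 called higher by DESeq2. The 9 are 11.5% of the members, close to the 11.7% of all tested genes that passed in either direction. The share that fell was 5.81% over all genes and 7.72% over the 9146 genes whose log2 CPM averaged 3 or more, a level that all 78 members reached. At an unadjusted p under 0.05, 35 members (44.9%) were lower, against 15.8% of all genes. In 41 members (52.6%) the SIRPα KO libraries all lay below the lowest WT one, which was so for 21.2% of all genes and for 22.8% of those at a mean log2 CPM of 3 or more. In 3 members the SIRPα KO libraries all lay above the highest WT one, against 21.6% of all genes, and in 34 the groups overlapped, against 57.2%.

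The WT libraries did not agree among themselves. WT replicate 3 held the highest value of the 6 libraries in 69 of the 78 members (88.5%), compared with 31.5% of all genes tested. The ratio of WT replicate 3 to the mean of WT replicates 1 and 2 had a median of 1.36 over the members and 0.965 over all genes. Against the mean of WT replicates 1 and 2 alone, the SIRPα KO mean had a median ratio of 0.899, and against WT replicate 3 of 0.661. The median coefficient of variation of the members was 19.2% in WT and 4.29% in SIRPα KO. Over the genes at a mean log2 CPM of 3 or more it was 19.6% and 7.57%. In the fit that dropped WT replicate 3, the log2FC median of the members was -0.15 and 52 of them were lower. Its WT libraries were the 2 of code 37, which may be one sample, so its calls may rest on no replication within WT. That fit called 19 members lower (24.4%), against 8.07% of the genes it tested, and called Mrpl3 and Mrps2 higher. Without any one of the SIRPα KO libraries no member was called, but only 0.112% to 0.12% of all genes were, so that this 0 is no result about the members. In these fits 22 to 24 of the 78 members had an unadjusted p under 0.05, and so did 2935 to 3183 of the 14141 to 14242 genes tested. The median of the members stayed between -0.35 and -0.32.

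**Figure D2:**
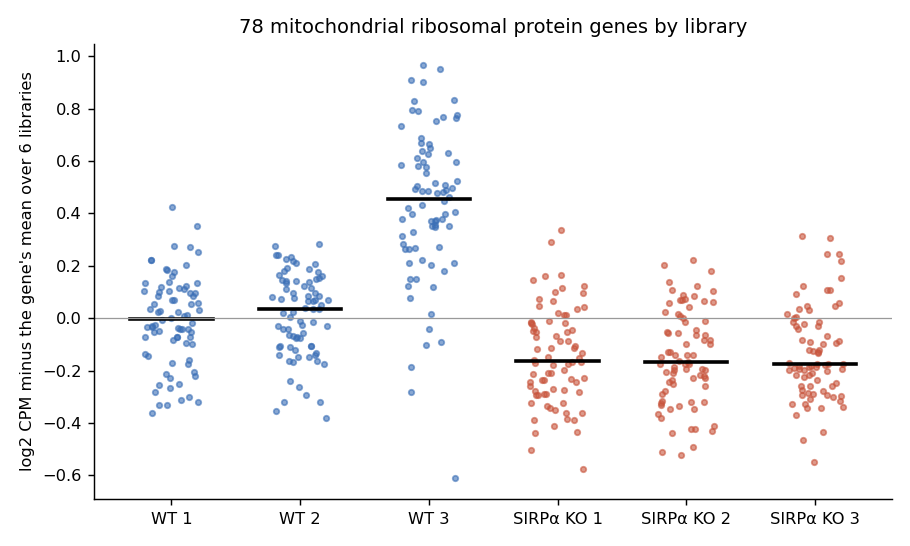
Log2 CPM of each of the 78 members in each library, less the gene's mean over the 6 libraries, with the library's median as a black bar. The median of WT 3 lies at 0.45, those of WT 1 and WT 2 at -0.0032 and 0.035, and those of the SIRPα KO libraries between -0.18 and -0.16.

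The members that fell encode proteins of both subunits. In the large subunit these were Mrpl33, Mrpl23, Mrpl14, Mrpl41 and Mrpl4. Mrpl33 (ENSMUSG00000106918.3, chromosome 5, 31596935 to 31664384, + strand of mm10) encodes a small protein of the bL33 family. It had 202, 183 and 283 CPM in WT replicates 1 to 3 and 101, 107 and 103 CPM in SIRPα KO replicates 1 to 3. The groups were far apart and the SIRPα KO values nearly equal. The log2FC was -1.10 ± 0.17 (SE), a level 0.466 times that of WT, with an edgeR adjusted p of 0.0144, the largest change of any member in this fit. Mrpl23 (ENSMUSG00000037772.13, chromosome 7, 142532686 to 142540747, + strand) belongs to the uL23 family at the rim of the tunnel through which the new protein leaves. It had 73.5, 69.3 and 112 CPM in the WT libraries and 48.3, 43.9 and 51.7 CPM in the SIRPα KO libraries. Its log2FC came to -0.82 ± 0.20 (SE), with an edgeR adjusted p of 0.0409.

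Mrpl14 (ENSMUSG00000023939.7, chromosome 17, 45686322 to 45698495, + strand) is of the uL14 family, on the face of the large subunit that meets the small one. It had 54.6, 48 and 76.3 CPM in the WT libraries and 36.9, 31.8 and 36.7 CPM in the SIRPα KO libraries, a log2FC of -0.76 ± 0.20 (SE) with an edgeR adjusted p of 0.0471. Mrpl41 (ENSMUSG00000036850.4, chromosome 2, 24974117 to 24975098, - strand) has no bacterial counterpart. It had 75, 75.9 and 98.7 CPM in the WT libraries and 53.4, 49 and 52.3 CPM in the SIRPα KO libraries, with a log2FC of -0.69 ± 0.15 (SE) and an edgeR adjusted p of 0.0303. It was the one protein of the mitochondria-specific class among the 9. Mrpl4 (ENSMUSG00000003299.10, chromosome 9, 21002738 to 21008839, + strand), of the uL4 family that lines the exit tunnel, had 158, 155 and 189 CPM in the WT libraries and 112, 111 and 108 CPM in the SIRPα KO libraries. The log2FC was -0.61 ± 0.12 (SE), with an edgeR adjusted p of 0.0247.

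In the small subunit the members that fell were Mrps21, Mrps24, Mrps18c and Mrps14. Mrps21 (ENSMUSG00000054312.6, chromosome 3, 95862634 to 95871519, - strand), of the bS21 family, had 84.1, 77.2 and 102 CPM in the WT libraries and 48.8, 48.9 and 52.1 CPM in the SIRPα KO libraries. Here the log2FC was -0.82 ± 0.15 (SE), with an edgeR adjusted p of 0.0189. Mrps24 (ENSMUSG00000020477.10, chromosome 11, 5703983 to 5715680, - strand), which takes the place of the bacterial S3 protein, had 63.1, 63 and 94.4 CPM in the WT libraries and 39.2, 41.5 and 48.5 CPM in the SIRPα KO libraries. The log2FC was -0.77 ± 0.20 (SE), with an edgeR adjusted p of 0.0451. Mrps18c (ENSMUSG00000016833.14, chromosome 5, 100798627 to 100804471, + strand) had 87.2, 80.1 and 113 CPM in the WT libraries and 53.1, 56.6 and 58.8 CPM in the SIRPα KO libraries, a log2FC of -0.73 ± 0.16 (SE) with an edgeR adjusted p of 0.0297. Mrps14 (ENSMUSG00000058267.13, chromosome 1, 160195215 to 160202170, + strand), of the uS14 family in the head of the small subunit, had 126, 128 and 155 CPM in the WT libraries and 88.4, 88.9 and 94 CPM in the SIRPα KO libraries. Its log2FC came to -0.59 ± 0.13 (SE), with an edgeR adjusted p of 0.029. In each of the 9 genes WT replicate 3 was the highest library and no SIRPα KO library reached the lowest WT library. All 9 were also lower without WT replicate 3, with log2FC values between -0.89 and -0.48. The WT libraries left there share code 37 and may come from the same sample, and the 9 were picked from a fit that holds these libraries. These values are therefore no independent check of the 9. None of the 9 passed with libraries of one code summed (edgeR adjusted p between 0.13 and 0.15). Only 10 of the 14581 genes tested passed in that fit, so that this is no result about the 9.

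**Figure D3:**
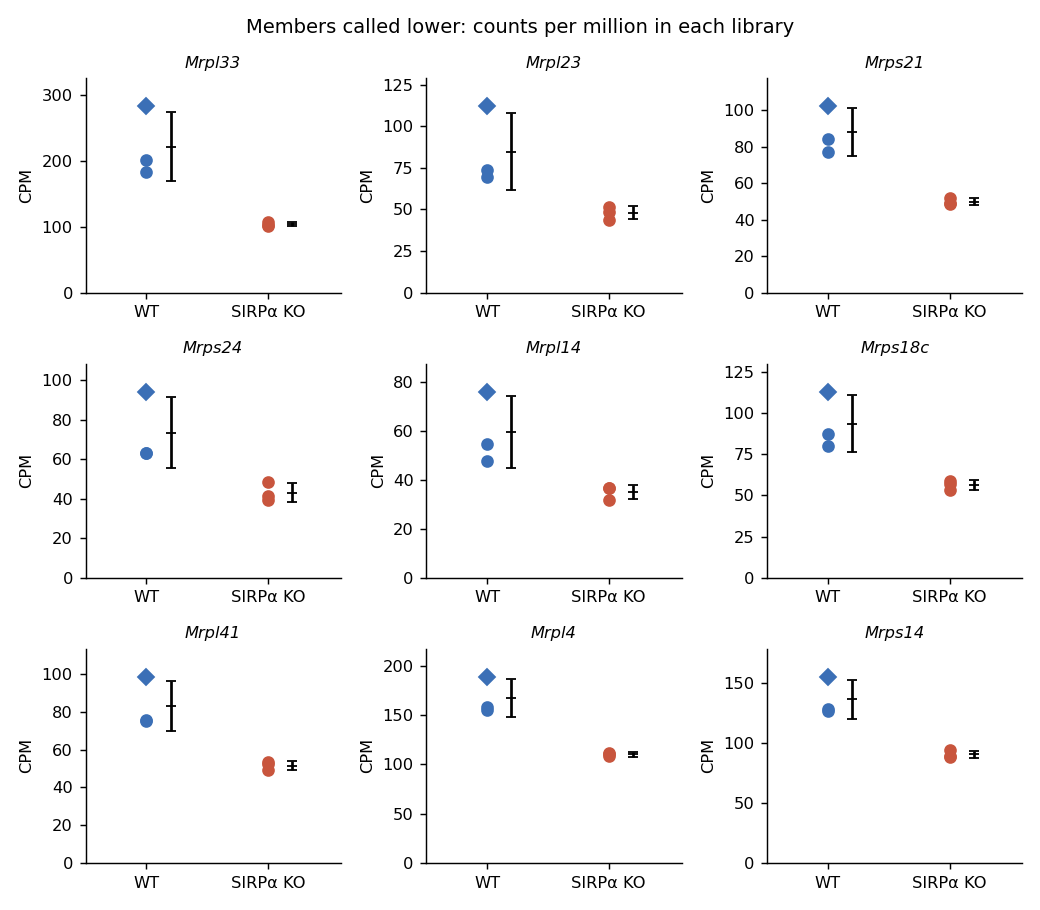
CPM of the 9 members that fell, in each library (points; WT replicate 3 as a diamond), with the group mean and SD (n = 3) beside them and axes that start at 0. In every panel the SIRPα KO points lie together below the lowest WT point, as for Mrpl33 with 101 to 107 CPM against 183 to 283 CPM.

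The differences followed transcript length. The members were split at 1052 bases, the median of their median coding transcripts. Of the 39 members at or under that length, 38 were lower in SIRPα KO and 8 were called, with a log2FC median of -0.50. Among all genes of that length with a mean log2 CPM of 3 or more, 71% were lower and 18.6% were called lower, a share close to 8 of 39, with a median of -0.31. Of the 39 longer members, 22 were lower and 1 (Mrps14) was called, with a median of -0.089. Among all longer genes 39.9% were lower and 4.58% called lower, with a median of 0.13. Across the 78 members the Spearman correlation of log2FC with length was 0.59 for the median coding transcript and 0.48 for the longest transcript. These are descriptions across genes, which share their libraries and are not replicates.

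The same trend ran through the rest of the table. Among 9125 genes at a mean log2 CPM of 3 or more and a known length, the lowest of 10 equal classes by longest transcript (204 to 1336 bases) had a log2FC median of -0.55 and the highest class had 0.47. Of the members, 29 fell in the lowest class, and their median was -0.53. By the median coding transcript, 20 members fell in the lowest class (189 to 734 bases), with a median of -0.63 beside -0.34 for all genes there, and 18 of the 20 lay below that value. Each member was set against the median of its own class. The difference had a median of -0.085 with the longest transcript and 46 of 78 members were below, and of -0.13 with the median coding transcript and 54 of 78 were below. Within a library, the deviation of a gene from its mean over libraries had a Spearman correlation with the longest transcript of -0.20, -0.097 and -0.59 in WT replicates 1, 2 and 3 and of 0.44, 0.49 and 0.49 in the SIRPα KO replicates. WT replicate 3 was thus the library with the largest excess of short transcripts, and it was the highest library for most members.

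**Figure D4:**
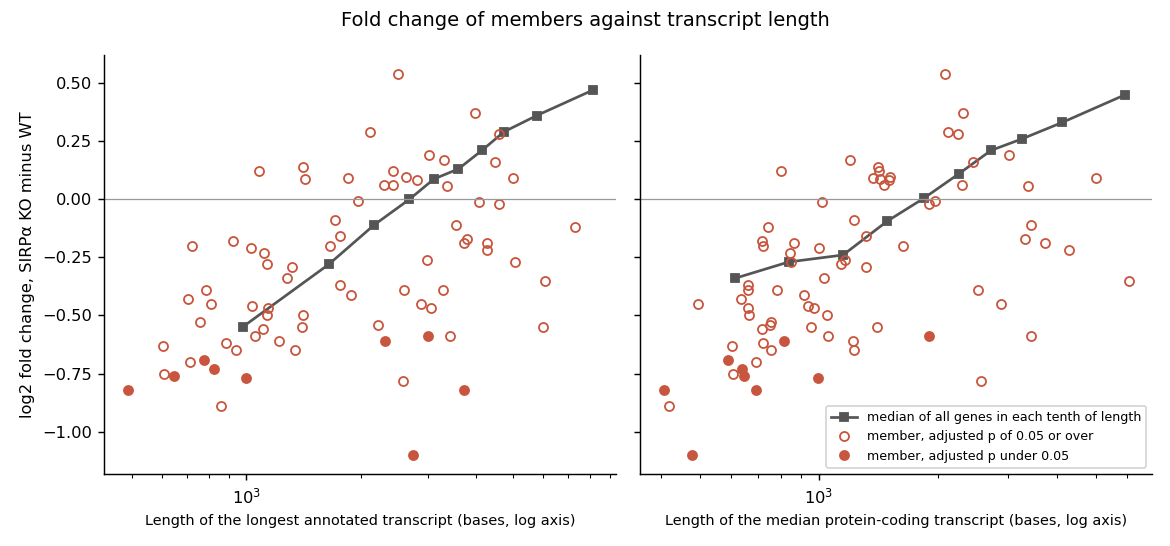
Log2FC (SIRPα KO minus WT) of the 78 members (circles, filled where the adjusted p is under 0.05) against the length of the longest annotated transcript (left) and of the median protein-coding transcript (right), on log axes. Grey squares join the median of all genes in each of 10 classes of length, which rises from -0.55 to 0.47 on the left and from -0.34 to 0.45 on the right.

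The test was repeated with an offset for each gene and library, taken from splines in transcript length and GC content that were fitted on 8651 genes outside the lists. With the longest transcript, the median of the members was -0.075 and 49 of them were lower. In that fit 7 members (8.97%) were called, against 8.81% of all genes. Mrpl33 (log2FC -1.25, edgeR adjusted p = 0.0134), Mrps14 (-0.88, 0.0192) and Mrpl4 (-0.39, 0.0471) remained called lower, and Mrpl13 (-1.15, 0.0436) and Mrpl42 (-0.69, 0.0386) were added. Mrps18b (0.59, 0.0192) and Mrpl38 (0.67, 0.037) were called higher. Mrpl14 changed sign, to 0.096, and Mrps21 came to -0.068, Mrpl41 to -0.11 and Mrps24 to -0.19. Mrpl23 (-0.92, edgeR adjusted p = 0.0576) and Mrps18c (-0.37, 0.0715) were no longer called either, though the log2FC of Mrpl23 was not smaller than without the offset. With the median coding transcript in place of the longest one, the median of the members was -0.26 beside -0.08 for all genes, 62 members were lower, and Mrpl33, Mrps14, Mrps18c, Mrps21 and Mrps25 were called lower. Mrpl33 and Mrps14 passed in all 3 of these fits. In 39 members the difference was below 0 in all 3 and in 8 it was above 0 in all 3. In 19 members the longest transcript was more than 2 times the median coding one. Against the longest transcript, the offset left a Spearman correlation of -0.61 across the members where it had been 0.48.

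The longest and the shortest members were as follows. Mrpl17, the bacterial L17 homologue at the exit tunnel, has a longest transcript of 7300 bases and a median coding one of 744. It had 122, 124 and 152 CPM in the WT libraries and 122, 122 and 121 CPM in the SIRPα KO libraries, so that the groups overlapped. Its log2FC of -0.12 became -0.74 (adjusted p = 0.0851) with the first offset and -0.17 with the second. Mrpl13 (6008 and 955 bases) had 87.9, 100 and 133 CPM in the WT libraries and 74.2, 76.7 and 69.3 CPM in the SIRPα KO libraries, with log2FC values of -0.55, -1.15 and -0.64. Mrps17 (5061 and 851 bases) gave -0.27, -0.76 and -0.30. Mrps25, whose longest and median coding lengths are both 6073 bases, gave -0.35, -0.88 and -0.99, and 69.8% of its exon bases are shared with Nr2c2 on the opposite strand, so that reads of the 2 genes cannot be told apart if strand was not used in counting. At the short end, Mrps21 (488 bases) and Mrpl14 (645 bases) are described above. Mrpl54 (604 bases) had 57.3, 65.2 and 101 CPM in the WT libraries and 48.6, 47.1 and 48.8 CPM in the SIRPα KO libraries. The log2FC was -0.63 ± 0.22 (SE, edgeR adjusted p = 0.0941) and became 0.29 with the first offset and -0.072 with the second. Mrpl34 (607 bases), the bL34 homologue, had 25.9, 36.4 and 58.1 CPM in the WT libraries and 23.7, 23.1 and 24.6 CPM in the SIRPα KO libraries. The WT values differed more than 2 times among themselves, and its log2FC of -0.75 ± 0.28 (SE) did not pass (adjusted p = 0.114). It turned to 0.13 with the first offset and was -0.27 with the second.

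Both subunits held members that fell. Of 51 large-subunit proteins 41 were lower, with 5 called and a log2FC median of -0.34. Of 26 small-subunit proteins 18 were lower, with 4 called and a median of -0.31. Beside these counts and those of the classes below, 5.81% of all genes were called lower, and 7.72% of those at a mean log2 CPM of 3 or more. The lists place 46 members in the class with a direct bacterial counterpart, of which 8 were called. Mrps18a and Mrps18b are related to a bacterial protein but sit elsewhere in the particle, and the lists count them as mitochondria-specific. The 30 of the large subunit had a median of -0.33 with 26 lower, and the 16 of the small subunit had a median of -0.43 with 13 lower. The 21 mitochondria-specific proteins of the large subunit had a median of -0.34 with 15 lower. The 10 mitochondria-specific proteins of the small subunit had a median of -0.062, with 5 lower and 5 higher and none called by edgeR, while 4 were lower at an unadjusted p under 0.05. A difference between these classes was not tested. Their transcript lengths were unlike, with a median coding length of 1282 bases in the last class against 1006 in the conserved small-subunit proteins.

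**Figure D5:**
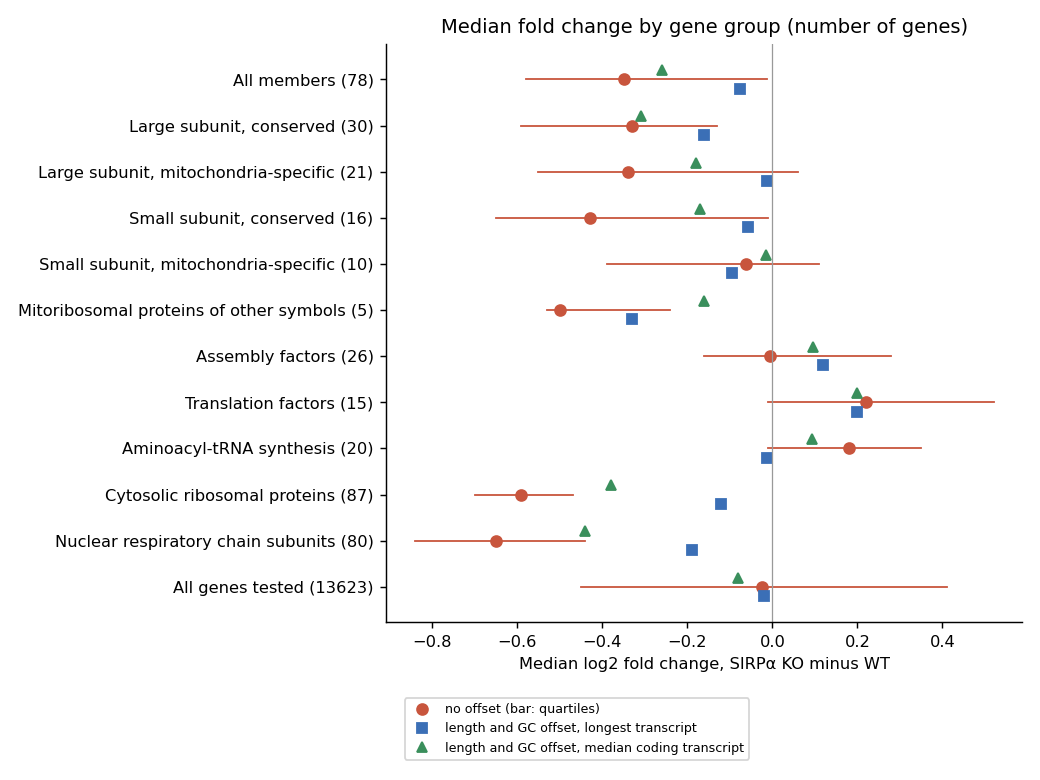
Median log2FC (SIRPα KO minus WT) of each gene group, with the number of genes in brackets: without an offset (circles, with the quartiles as bars), with the length and GC offset from the longest transcript (squares) and from the median coding transcript (triangles). The members shift from -0.35 to -0.075 and -0.26, while the translation factors stay near 0.2 in each fit.

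Functional sites of the particle were looked at in turn. The stalk that recruits the elongation factors is built from Mrpl10, Mrpl11 and Mrpl12, and none of them was called. Mrpl12, present in several copies per ribosome, had 179, 149 and 223 CPM in the WT libraries and 146, 150 and 156 CPM in the SIRPα KO libraries (log2FC -0.29, edgeR adjusted p = 0.241). Mrpl11 gave -0.47 (0.205) and Mrpl10 -0.089 (0.758). In all 3 the groups overlapped. Of 8 proteins listed at the outer opening of the exit tunnel, 4 were lower and 4 higher, with a median of -0.031, and 1 (Mrpl23) was called. Mrpl4, which lines the tunnel further in and also fell, is not in that list. Among these, Mrpl45, which holds the ribosome at the inner membrane, had 188, 151 and 233 CPM in the WT libraries and 192, 199 and 206 CPM in the SIRPα KO libraries, with the SIRPα KO values inside the WT range (log2FC 0.06, adjusted p = 0.823). In the central protuberance, the crown of the large subunit, 5 of 6 proteins were lower with a median of -0.31 and none was called.

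The paralogues Mrps18a, Mrps18b and Mrps18c are related to the bacterial S18 protein and sit at different places, Mrps18a in the large subunit and the others in the small one. Their values were unlike. Mrps18c fell, as given above. Mrps18a had 66.6, 71.9 and 99.6 CPM in the WT libraries and 49.8, 56.8 and 56.8 CPM in the SIRPα KO libraries, a log2FC of -0.54 ± 0.18 (SE) that did not pass (edgeR adjusted p = 0.0853). Mrps18b had 89.8, 98.9 and 133 CPM in the WT libraries and 124, 112 and 112 CPM in the SIRPα KO libraries, with a log2FC of 0.12 ± 0.16 (SE) and an adjusted p of 0.658. It was called higher with the first offset (0.59) and not with the second (0.37, adjusted p = 0.114). A difference between the paralogues was not tested, and 2 annotated genes match Mrps18b nearly identically, one of them at the same locus.

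Some single members have a further place in the biology of the organelle. Mrps12, the decoding-centre protein whose bacterial counterpart is the site of streptomycin resistance, had 72.9, 75.4 and 122 CPM in the WT libraries and 60.9, 56.3 and 58.4 CPM in the SIRPα KO libraries, with a log2FC of -0.62 ± 0.21 (SE) and an edgeR adjusted p of 0.0905. Mrpl58, a peptidyl-tRNA hydrolase built into the large subunit that frees stalled chains, had 36.7, 35.8 and 62.1 CPM in the WT libraries and 35.5, 35.2 and 32.2 CPM in the SIRPα KO libraries (log2FC -0.39, adjusted p = 0.285). WT replicate 3 stood above the other 5 libraries, and without it the log2FC was -0.073. Mrps30, a large-subunit protein in spite of its symbol, gave -0.17 (adjusted p = 0.543), with overlapping groups. Mrps36 is now known as a subunit of the oxoglutarate dehydrogenase complex and not of the ribosome. It had 56.1, 60.9 and 76 CPM in the WT libraries and 49, 48.3 and 46.1 CPM in the SIRPα KO libraries, a log2FC of -0.43 ± 0.15 (SE) with an edgeR adjusted p of 0.104. It lay within the range of the ribosomal proteins, and it has 2 annotated pseudogenes with near-identical sequence in the table, with at most 0.53 CPM in any library.

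The 18 members that were higher gave log2FC values of 0.057 to 0.54 and none passed the test. The 3 whose groups did not overlap were picked after their values were seen. Mrps2, of the uS2 family, had 52.3, 60.4 and 39.9 CPM in the WT libraries and 76.9, 70.2 and 75.4 CPM in the SIRPα KO libraries. Here the log2FC was 0.54 ± 0.17 (SE), with an edgeR adjusted p of 0.0774, and 0.55 and 0.47 with the 2 offsets. It is one of 3 members in which WT replicate 3 was the lowest library. Mrpl3, of the uL3 family, had 55.6, 62.6 and 64.2 CPM in the WT libraries and 84.4, 74.4 and 76.8 CPM in the SIRPα KO libraries, with a log2FC of 0.37 ± 0.13 (SE, adjusted p = 0.098) and of 0.029 and 0.081 with the offsets. Mrps35 had 38.1, 38.3 and 32.9 CPM in the WT libraries and 41, 42 and 49.8 CPM in the SIRPα KO libraries (log2FC 0.28, adjusted p = 0.247), and both offsets turned its direction, to -0.13 and -0.015. Mrpl3 and Mrps2 were called higher by DESeq2. Without WT replicate 3, where the WT libraries may come from one sample, their log2FC values were 0.42 and 0.40.

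Another 5 proteins of the mitochondrial ribosome carry other symbols and so are not among the 78. Chchd1 and Aurkaip1, small proteins of the small subunit, fell. Chchd1 had 70.4, 57.2 and 105 CPM in the WT libraries and 40.1, 44.5 and 39.3 CPM in the SIRPα KO libraries, a log2FC of -0.91 ± 0.23 (SE) with an edgeR adjusted p of 0.0417. Aurkaip1 had 101, 99.5 and 130 CPM in the WT libraries and 75.9, 76.5 and 76.4 CPM in the SIRPα KO libraries, with a log2FC of -0.53 ± 0.14 (SE) and an adjusted p of 0.0484. Ptcd3, a pentatricopeptide repeat protein of the small subunit, rose. It had 90.3, 116 and 59.6 CPM in the WT libraries and 166, 165 and 155 CPM in the SIRPα KO libraries, with a log2FC of 0.87 ± 0.22 (SE) and an edgeR adjusted p of 0.045. Its coding transcript, of 2581 bases, is longer than those of Chchd1 (586) and Aurkaip1 (901), and none of the 3 passed with the length and GC offset. With the longest transcript, Chchd1 then gave -0.33 (edgeR adjusted p = 0.174), Aurkaip1 0.00099 (0.996) and Ptcd3 0.69 (0.0587). With the median coding transcript, Chchd1 gave -0.79 (edgeR adjusted p = 0.0527), Aurkaip1 -0.16 (0.346) and Ptcd3 0.49 (0.0697), so that none passed there either. Ptcd3 passed with an offset for length alone (0.86, edgeR adjusted p = 0.0396). Dap3, a GTP-binding protein of the small subunit, gave -0.24 (adjusted p = 0.206), and Gadd45gip1, of the large subunit, gave -0.50 (0.118). In both, the SIRPα KO libraries all lay below the lowest WT one.

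The genes for proteins that build and run the ribosome went both ways, and a difference from the members was not tested. Their median coding length was 1821 bases, against 1052 for the members. All genes of 1658 to 2040 bases at a mean log2 CPM of 3 or more had a log2FC median of 0.0037. Of 26 assembly factors, 13 were higher and 13 lower, with a log2FC median of -0.0061. Dhx30, an RNA helicase of the mitochondrial RNA granules, was the one called, with 137, 125 and 116 CPM in the WT libraries and 178, 180 and 179 CPM in the SIRPα KO libraries (0.51 ± 0.11 SE, edgeR adjusted p = 0.0297). Of 15 genes for translation factors and mRNA handling, 11 were higher, with a median of 0.22, and Lrpprc and Gfm2 rose. Lrpprc, which binds and stabilises mitochondrial mRNAs, had 74.9, 60.3 and 40.1 CPM in the WT libraries and 140, 118 and 124 CPM in the SIRPα KO libraries. Its log2FC of 1.12 ± 0.22 (SE, edgeR adjusted p = 0.0242) was the largest rise in these lists, and it passed with both offsets (0.82 and 0.70). Its partner Slirp, an RNA-binding protein, gave -0.51 (adjusted p = 0.127). Gfm2, a factor that splits the subunits after termination, gave 0.99 (0.0215). Of 20 genes for charging mitochondrial tRNAs, 14 were higher, with a median of 0.18, and Rars2, the arginyl-tRNA synthetase, rose by 0.64 (edgeR adjusted p = 0.0312). Counted together, these 61 genes had a median of 0.15 with 4 called higher and none lower by edgeR, while 4 were lower at an unadjusted p under 0.05. Of all genes tested, 5.94% were called higher, which is close to 4 of 61. With the offsets from the longest and the median coding transcript, 6 and 5 of the 61 were called higher and none lower. Over all 13623 genes tested, 557 and 501 were called higher in these fits. Dhx30, Gfm2 and Rars2 passed with both offsets, as Lrpprc did.

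The 2 mitochondrial ribosomal RNAs were counted in spite of poly-A priming, and they were chosen after their values were seen. mt-Rnr2 had 605, 1060 and 1703 CPM in the WT libraries and 573, 586 and 620 CPM in the SIRPα KO libraries, and its log2FC of -0.92 did not pass (edgeR adjusted p = 0.0926). mt-Rnr1 had 38.2, 77 and 143 CPM in the WT libraries and 39.4, 42.2 and 44.8 CPM in the SIRPα KO libraries (-1.03, adjusted p = 0.129). In both RNAs WT replicate 3 was again the highest library and WT replicate 1 was close to the SIRPα KO values. The 13 mitochondrially encoded mRNAs had a median of -0.16 and none was called by edgeR, with 1 lower at an unadjusted p under 0.05.

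Among other gene groups of short transcripts, the 87 cytosolic ribosomal protein genes had a log2FC median of -0.59, with 87 lower and 3 called lower. The 80 nuclear genes for subunits of the respiratory chain and the ATP synthase had a median of -0.65, with 75 lower and 37 called lower, where 5.81% of all genes were. With the length and GC offset these medians became -0.12 and -0.19, beside -0.075 for the members, with 0 of 87, 18 of 80 and 5 of 78 called lower by edgeR and 4.72% of all genes. With the median coding transcript they were -0.38 and -0.44, beside -0.26, with 0, 22 and 5 called lower and 4.59% of all genes. The mitochondrial ribosomal protein genes therefore had the median nearest to 0 of the 3 groups in each fit, though differences between the groups were not tested.

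Several of the genes share sequence with others. An exon of another annotated gene overlapped an exon of 33 members, and 23 matched another gene nearly identically (identity of 95% or more across 50% or more of the shorter transcript). In 20 of the 23 such a gene lay apart from the member, and in 3 it was a gene that overlaps it. Over the 33 members with neither, 23 were lower, 2 were called lower and the median was -0.27. The share called lower over all genes was 5.81%. Of the 9 genes that fell, Mrpl23, Mrpl41 and Mrps21 have near-identical copies, Mrpl33 shares 261 exon bases (3.56%) with Gm43809 on the same strand, Mrps24 shares 15.4% of its exon bases with Urgcp and Mrps18c 23.2% with Gm43511 on the same strand, and Mrpl14 shares 11.2% with Tmem63b on the opposite one. Mrpl23-ps1, identical to Mrpl23 over 87.4% of the shorter transcript, was at 7.35 CPM in the WT libraries and 3.69 CPM in the SIRPα KO libraries, a log2FC of -0.99 that did not pass (edgeR adjusted p = 0.096). Gm43809, which overlaps Mrpl33, was at 0.357 and 0.143 CPM, Gm43511 at 4.72 and 5.76 CPM, and Urgcp at 117 and 118 CPM. Mrpl4 and Mrps14 had neither an overlap nor a copy.

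RefSeq promoter windows (250 bases before to 50 after the annotated start, build GRCm38.p6) were matched by symbol for 69 of the 78 members. Several motifs were searched on both strands, of which CCGGAAG, the core bound by ETS factors such as GABP, and GCGCATGC, the core bound by NRF1, are tied by textbook knowledge to nuclear genes for mitochondrial proteins. CCGGAAG was in 25 windows (36.2%), against 19.8% of the windows of tested genes and 8.86% of all windows. GCGCATGC was in 8 (11.6%), against 5.68% and 2.71%. The longer letters AAGATGGCG, bound by YY1, were in 8 (11.6%), against 3.5% and 1.4%. The GC box GGGCGG was in 34 (49.3%), against 64.9% and 35.6%, and the CCAAT box in 27 (39.1%), against 39.5% and 37.4%. TATAAA was in 4 (5.8%), against 6.83% and 13.6%. None of these motifs contains another, though CCGGAAG and AAGATGGCG can overlap at their shared letters, and a match is a description and not a bound site.

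The 25 members with CCGGAAG in the window had a log2FC median of -0.54, with 21 lower, and the other matched members had -0.22. Their median coding lengths were 756 and 1194 bases, so that the motif and short length went together, and the difference was not tested. The 8 members with GCGCATGC had a median of -0.10, with 5 lower, against -0.39 for the others. Sequence is shown for the members at both ends of the response. The stretches are the 80 bases before the RefSeq start, 5′ to 3′ along the gene, with CCGGAAG or its reverse complement CTTCCGG and GCGCATGC in capitals. In the fit without an offset, Mrpl33 fell most and Mrps2 was the highest member. Mrpl52, Mrps16 and Mrpl34 are the 3 lowest, and Mrps22 and Mrpl3 the 2 highest, of the 13 members with CCGGAAG wholly inside this stretch.
Mrpl33: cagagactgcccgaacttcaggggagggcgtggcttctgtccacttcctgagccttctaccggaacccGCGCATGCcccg
Mrpl52: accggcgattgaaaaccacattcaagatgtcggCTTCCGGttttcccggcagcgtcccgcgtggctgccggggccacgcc
Mrps16: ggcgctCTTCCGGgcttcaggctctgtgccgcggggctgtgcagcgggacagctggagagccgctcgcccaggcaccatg
Mrpl34: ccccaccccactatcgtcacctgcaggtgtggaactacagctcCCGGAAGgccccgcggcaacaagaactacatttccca
Mrps22: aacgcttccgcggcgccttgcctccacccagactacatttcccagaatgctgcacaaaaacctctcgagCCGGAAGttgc
Mrpl3: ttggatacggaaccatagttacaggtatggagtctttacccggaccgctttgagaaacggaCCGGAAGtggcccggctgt
Mrps2: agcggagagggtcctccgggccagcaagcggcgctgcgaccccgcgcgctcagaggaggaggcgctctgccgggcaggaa
In Mrpl33 (chr5:31613871-31613950, + strand) the NRF1 letters end shortly before the start, and CCGGAAG begins 3 bases before it and runs past the shown stretch. In Mrpl52 (chr14:54426829-54426908, + strand), whose log2FC was -0.89 (edgeR adjusted p = 0.0507), and in Mrps16 (chr14:20393491-20393570, - strand; -0.78, adjusted p = 0.0634) the ETS letters are on the reverse strand. In Mrpl34 (chr8:71464846-71464925, + strand), Mrps22 (chr9:98601680-98601759, - strand) and Mrpl3 (chr9:105053188-105053267, + strand) they are on the forward strand. Mrps22 (log2FC 0.17) and Mrpl3 (0.37) carry the same letters as the members that were lowest, and Mrps2 (chr2:28467986-28468065, + strand) has neither motif here.

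A pair of members start close together. In RefSeq, Mrps11, of the small subunit, starts at position 78783131 of chromosome 7 on the + strand and Mrpl46, of the large subunit, at 78783089 on the - strand, so that they point away from each other with 41 bases between their starts. These bases (chr7:78783090-78783130, + strand) hold a GC box, in capitals:
Mrps11-Mrpl46: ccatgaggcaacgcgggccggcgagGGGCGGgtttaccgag
Mrps11 had 36.7, 44.2 and 58.3 CPM in the WT libraries and 28.1, 31.4 and 32.9 CPM in the SIRPα KO libraries, with separate groups and a log2FC of -0.59 ± 0.20 (SE, edgeR adjusted p = 0.09). Mrpl46 had 62.3, 54.2 and 84 CPM in the WT libraries and 53.8, 54.5 and 56.4 CPM in the SIRPα KO libraries, with overlapping groups and a log2FC of -0.28 ± 0.18 (SE, adjusted p = 0.309). A difference between the pair was not tested, and in the mm10 annotation used here for coordinates the 2 genes overlap, with 173 exon bases in common. Whether they share a promoter was not tested.

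The genes for the factors named above were measured too, and were chosen after their values were seen. Gabpa, the DNA-binding subunit of GABP, had 36.3, 37.6 and 19.5 CPM in the WT libraries and 77.7, 55.4 and 66.3 CPM in the SIRPα KO libraries. It rose, with a log2FC of 1.09 ± 0.27 (SE, edgeR adjusted p = 0.0393), and it gave 0.66 (adjusted p = 0.0606) and 0.60 (0.0711) with the 2 offsets. Gabpb1, the other subunit, gave 0.26 (adjusted p = 0.211), and -0.082 and -0.012 with the offsets. Nrf1 gave 0.27 (adjusted p = 0.23) and Yy1 -0.27 (0.299), both with overlapping groups.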

How the data were processed

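RNAseq of sorted, cultured mouse lung ILC2s was deposited for 3 WT and 3 SIRPα KO libraries, made from full-length cDNA with poly-A priming. The authors deposited estimated counts per gene, 57.3 to 61.3% of which were whole numbers (within 1e-06). The submitters' processing notes name STAR 2.7.8, Partek 10.0, DESeq2 and the build mm10. Strand use and the handling of reads shared between genes are not given in the sources used here. Groups were taken from the genotype labels.

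Estimated counts were rounded, filtered with filterByExpr (13623 of 17831 genes kept), scaled by TMM and tested with edgeR 4.0.16 (quasi-likelihood, R 4.3.3) with Benjamini-Hochberg adjustment over all genes tested. A gene was called at an adjusted p under 0.05. Standard errors are the log2 fold change divided by the square root of F. Alternatives were DESeq2 1.42.0, RLE and upper quartile scaling, no filter and a stricter one, offsets for transcript length and GC content (splines with 5 degrees of freedom), a replicate block, summed libraries of one code, each library left out and an adjusted p under 0.1. Transcript copies were found with BLAST+ 2.17.0. The steps were tested on simulated data. No pair of libraries agreed within sampling noise, so no library was treated as deposited in duplicate. That does not show that libraries of one code are separate samples, and n = 3 per group follows the labels.

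The members and gene lists were chosen with earlier results of these data known. Genes named in the text are the called members, the 4 longest and 4 shortest by longest transcript, the stalk, S18 and other-symbol lists, Mrps12, Mrpl45, Mrpl58, Mrps30 and Mrps36, and the called pathway genes with the largest rise and fall. Other genes named were chosen after their values were seen. The values of 1 marker gene are not reported here.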

Additional observations from a re-analysis of the deposited data

How the results depend on the processing

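With 38% biological variation in WT and 15.2% in SIRPα KO, and libraries of one code possibly from one sample, counts of calls moved widely. Beside 1600 calls over all genes, 9 among the members and 7 of 66 in the related lists (other-symbol proteins, assembly, translation and tRNA charging), DESeq2 gave 3118, 31 and 12, and an adjusted p under 0.1 gave 3054, 31 and 11. Upper quartile scaling, which shifted the median of all genes to -0.13, called 14 members (17.9% against 12.6% of all genes), the stricter filter 20 (25.6% against 22.5%), and the offset by median coding transcript 5 (6.41% against 8.27%). DESeq2's 31 were 39.7% against 22.9% of all genes. Without a filter on low counts 4 genes of the related lists were called. Libraries of one code summed gave 10, 0 and 0 calls, and 14, 0 and 0 with the length and GC offset. In the summed fit without that offset, 29 of the 78 members had an unadjusted p under 0.05, and so did 3359 of the 14581 genes tested. Leaving out 1 library, with or without that offset, gave 16 to 2606 calls over all genes, 0 to 21 among the members and 0 to 11 in the related lists. The counts were lowest without any one SIRPα KO library and the members' count was highest without WT replicate 3. The cause was not tested. With the length and GC offset from the longest transcript, direction changed for 8 of the 31 genes of the naming rule. Of the 8, Mrpl14 (0.096, and 0.14 with codes summed) and Aurkaip1 (0.00099 and 0.017) had been called, and Mrpl34 (0.13), Mrpl54 (0.29), Mrps12 (0.053), Mrps36 (0.049), Mrpl12 (0.20) and Mrpl10 (0.18) had not. With the median coding transcript direction changed for 2, Mrpl12 (0.031) and Mrpl10 (0.12), while Mrpl14 (-0.25) and Aurkaip1 (-0.16) stayed below 0. An offset for length alone changed it for 4. With 1 library left out and nothing else changed, Mrpl14 ranged from -0.90 to -0.54, Mrps21 from -0.90 to -0.68 and Aurkaip1 from -0.60 to -0.39. With the length and GC offset as well, they reached up to 0.20, 0.044 and 0.015. The other called members were lower in all 24 settings.

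The replicate numbers did not pair the libraries (correlations of deviations -0.14, 0.18 and 0.031 for equal numbers, over 9125 genes). With a replicate block, 1118 genes, 6 members and 3 genes of the related lists were called. With the replicate block and the length and GC offset these were 370, 2 and 1, with Mrpl14 at 0.095 and Aurkaip1 at 0.0011.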
